A study of Mus musculus with 17 samples.

Results

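Transcripts of 9 peptidases of the renal brush border were followed across the kidney cortex libraries of 4 groups of mice: Ggt1, Dpep1, Anpep, Enpep, Dpp4, Ace, Mme, Mep1a and Mep1b. They were chosen by name as proximal tubule (PT) brush border enzymes, with earlier results of these data known. Ggt1 is among them because a portion of its promoter drives the recombinase of the knockout. The members are 9 of the 48795 genes in the table. All 9 passed the minimum for testing, a mean FPKM (counts scaled by exon length and library size) of at least 1 in either group, in every comparison.

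The brush border is the dense carpet of microvilli on the luminal side of PT cells. Its membrane carries peptidases whose active sites face the tubular fluid, where they break filtered glutathione, hormones and other peptides into amino acids and dipeptides that the same cells take up. Several of these enzymes also end or make peptide signals, above all in the renin-angiotensin system.

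The 17 libraries were labelled as 5 wild type (WT), 5 ATF4 KO (GCERAd), 3 TRACK and 4 TRACK-ATF4 KO (GCERAdT) mice. GCERAd mice were Ggt/CreER TG/TG with ATF4 fl/fl alleles and had received 0.2 mL of tamoxifen at 20 mg/mL on each of 2 days from 6 weeks of age, so that ATF4, a transcription factor of the integrated stress response, was to be deleted in PT cells alone. TRACK stands for "TRAnsgenic model of Cancer of the Kidney", and in this model a fragment of the Ggt1 promoter drives an active form of HIF1A. Tissue was taken 1 month after the first injection, after a fast of 16 h, and the cortex also holds other tubule segments, vessels and stroma. Whether WT mice received tamoxifen, and the age and treatment of both TRACK groups, are not given in the sources used here. The study methods name 3 to 4 mice per cohort, fewer than the 5 libraries of the WT and GCERAd groups, so p-values measure the spread between libraries, some of which may share a mouse.

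Depth was between 53688512 and 71364561 counts per library, and the lowest count of any member in any library was 3902, for which counting error alone is 1.6% (SD). Xist was between 149 and 418 CPM (counts scaled to a common library size by TMM) in the WT libraries and at most 6.07 CPM in the other 12, while Ddx3y was at 0 in every WT library and between 49.8 and 80.3 CPM in the others. Every comparison with WT therefore cannot be told apart from this sex-linked difference, whereas GCERAdT against TRACK and GCERAdT against GCERAd are free of it. Atf4 fell in GCERAd against WT (65.4 ± 9.30 against 84.5 ± 9.81 CPM, SD; log2 fold change -0.38, SE 0.11, adjusted p = 0.0218, edgeR) with overlapping libraries. It was not lower in the libraries labelled GCERAdT (92.4 ± 10.0 CPM, n = 4) than in TRACK (83.6 ± 8.93 CPM, n = 3; adjusted p = 0.367, edgeR). The share of counts on processed pseudogenes parted the libraries into a kind A (8 libraries, 0.032% to 0.038%) and a kind B (9 libraries, 0.0574% to 0.0784%). WT held 4 of kind A and 1 of kind B, GCERAd 2 and 3, TRACK 0 and 3, and GCERAdT 2 and 2. The study's sequencing summary lists libraries of a higher and of a lower yield of bases, under names not matched to these labels. In it, 2 names occur again with an added letter. Whether the kinds or possible repeats follow that listing was not tested. GCERAd 4 and 5 stood apart from GCERAd 1 to 3, with a median difference per gene of 0.208 to 0.240 on the log2 scale against 0.118 to 0.156 among GCERAd 1 to 3. They were nearer to the TRACK libraries (0.184 to 0.214) than to GCERAd 1 to 3, which themselves lay at 0.268 to 0.292 from TRACK. WT 1 and 2, and GCERAd 2 and 3, may be repeat libraries of 1 mouse each, and were counted as separate. The median difference per gene did not single these pairs out. It was 0.143 for WT 1 and 2 and 0.112 for WT 1 and 5. For GCERAd 2 and 3 it was 0.149, and for GCERAd 1 and 2 0.118.

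The summed level of 10 markers of the whole PT (Lrp2, Cubn, Slc34a1 and 7 others) was 12240 to 14640 CPM in WT, 14860 to 17430 in GCERAd, 9623 to 11270 in TRACK and 9282 to 10550 in GCERAdT. In whole cortex, fewer cells of a type and less RNA per cell cannot be told apart. Markers of other cells moved as well in GCERAd against WT, where 14.1% of all genes were called higher and 13.5% lower. All 5 collecting duct markers and all 3 thick ascending limb markers were lower, and all 4 stroma markers were higher (edgeR). Of the 10 whole PT markers, 2 were called higher and the others did not pass. Of the remaining lists in that comparison, 2 of 3 distal convoluted tubule, 2 of 4 intercalated cell and 1 of 4 podocyte markers were lower and 1 of 5 endothelial markers was higher. Of early PT, leukocyte and adipocyte markers, 3 of each were tested and 0 were called by edgeR, 0 by DESeq2 and 0 before adjustment. Of late PT markers 1 was higher and 2 were lower, and of tubule injury markers 2 were higher and 1 was lower. Adipocyte transcripts summed to 26.7 and 28.0 CPM in GCERAd 3 and 2 and to 78.9 CPM in TRACK 1, against at most 7.33 CPM in the other 14 libraries. The part of these cell types in the results that follow was not tested, except where scaling to the PT list is given.

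The members spanned a wide range of abundance. Per length, Mep1a had the highest level in each group, with a mean of 309 FPKM in WT, 537 in GCERAd, 515 in TRACK and 433 in GCERAdT. Ggt1 came next with 170, 272, 217 and 199 FPKM in the same order, and with merged exon lengths the ranges of both genes overlapped neither each other nor that of the gene ranked below in any group. With the longest transcript as length, Mep1a (309 to 455 FPKM) and Ggt1 (220 to 331 FPKM) overlapped in WT. Dpp4 was the lowest in each group, with means between 12.0 FPKM in GCERAd and 16.3 FPKM in GCERAdT. In WT the middle places were held by Ace (55.0 FPKM), Mep1b (52.8), Anpep (36.1), Dpep1 (34.6), Mme (29.4) and Enpep (26.6), and each of these overlapped its neighbour. Dpep1 stood at the fourth place in GCERAd and the fifth in TRACK, but its range overlapped that of the next gene in both. All 9 together summed to 2874 ± 429 CPM in WT and 3978 ± 417 CPM in GCERAd (SD, n = 5 each). As a share of the TMM-scaled library size, not of raw counts, this was 0.254% to 0.362% in WT and 0.349% to 0.453% in GCERAd.

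**Figure D1:**
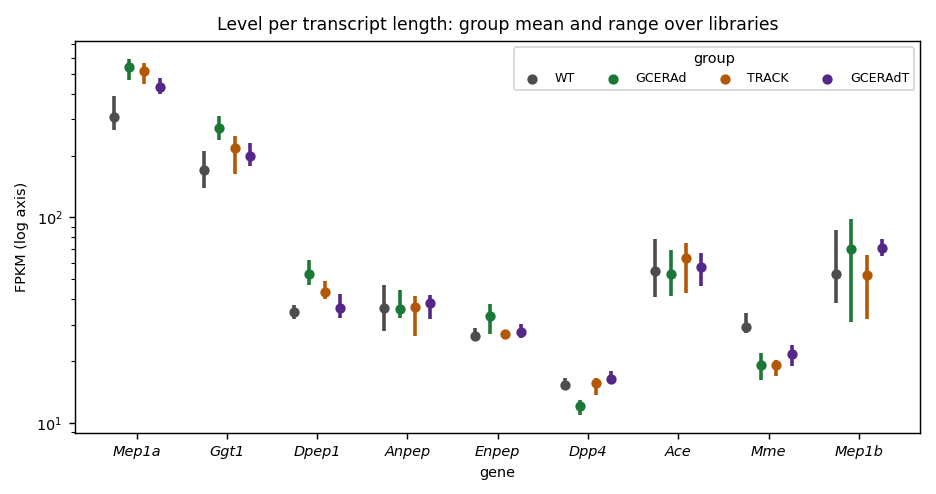
Level of each peptidase transcript per length (FPKM, log axis), where points are group means and lines run from the lowest to the highest library. Mep1a and Ggt1 lie above the other 7 genes in each group, and Dpp4 is the lowest, at 15.3 FPKM in WT and 12.0 FPKM in GCERAd.

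The comparison of GCERAd with WT sets the ATF4 KO label against wild type, and the sex-linked difference goes with it. Of the 9 members, 4 rose (Ggt1, Dpep1, Mep1a and Enpep), 2 fell (Mme and Dpp4) and 3 did not pass the test (Ace, Anpep and Mep1b), where 27.6% of 11581 genes tested passed it, 14.1% higher and 13.5% lower. The libraries of both groups did not overlap for 5 members, against 20.0% of all genes tested. The members' median log2 fold change was 0.31, that of all genes tested was -0.00052, and the median size of change was 0.40 against 0.19. The members were chosen with earlier results of these data known, so these figures are description and cannot serve as evidence of an excess over all genes.

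Ggt1 (gamma-glutamyltransferase 1) opens the gamma-glutamyl bond of glutathione in the tubular fluid and so starts its breakdown. In WT 1 to 5 Ggt1 was at 588, 533, 717, 476 and 590 CPM, and in GCERAd 1 to 5 at 813, 1066, 932, 918 and 906 CPM. Every GCERAd library was above every WT library, and the highest WT library was WT 3. The log2 fold change was 0.67 (SE 0.11, adjusted p = 0.00107, edgeR), which is 1.59-fold. Within kind A alone (2 against 4 libraries) it was 0.67 (adjusted p = 0.0122) and within kind B alone (3 against 1) it was 0.77 (adjusted p = 0.185).

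Ggt1 (ENSMUSG00000006345) lies at chr10:75561604-75586200 of GRCm38 on the + strand, and 20 transcripts are annotated for it, begun at several start sites. Some stretches upstream of its start sites are shown, because a portion of the Ggt1 promoter drives CreER in these mice. Which portion that is was not given in the sources used here. Those of Mep1a and Mme are shown because these are the members that set every other library apart from WT, in opposite directions. Not every start site of Ggt1 and Mme is shown. The sequences are from RefSeq (GRCm38.p6), up to 250 bases before the start site and without annotated exons. Capitals mark the cAMP response element TGACGTCA, to which factors of the ATF and CREB families bind.
Ggt1 upstream, start site at 75564132 (chr10:75563882-75564131, + strand): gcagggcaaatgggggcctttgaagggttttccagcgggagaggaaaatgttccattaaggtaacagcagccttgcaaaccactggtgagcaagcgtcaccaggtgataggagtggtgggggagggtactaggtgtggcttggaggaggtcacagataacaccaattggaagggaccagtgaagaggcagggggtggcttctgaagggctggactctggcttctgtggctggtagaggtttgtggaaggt
Ggt1 upstream, start site at 75571560 (chr10:75571310-75571525, + strand): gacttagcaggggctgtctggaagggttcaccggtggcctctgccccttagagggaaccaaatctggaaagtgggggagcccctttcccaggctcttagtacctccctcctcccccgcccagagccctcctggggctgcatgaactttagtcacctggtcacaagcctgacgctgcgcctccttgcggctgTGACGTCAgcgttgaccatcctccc
Mep1a upstream (chr17:43502813-43503023, - strand): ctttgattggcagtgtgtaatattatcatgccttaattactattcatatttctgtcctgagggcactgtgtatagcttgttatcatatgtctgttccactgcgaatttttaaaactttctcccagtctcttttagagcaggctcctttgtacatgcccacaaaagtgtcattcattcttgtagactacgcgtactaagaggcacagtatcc
Mme upstream, start site at 63295211 (chr3:63294961-63295210, + strand): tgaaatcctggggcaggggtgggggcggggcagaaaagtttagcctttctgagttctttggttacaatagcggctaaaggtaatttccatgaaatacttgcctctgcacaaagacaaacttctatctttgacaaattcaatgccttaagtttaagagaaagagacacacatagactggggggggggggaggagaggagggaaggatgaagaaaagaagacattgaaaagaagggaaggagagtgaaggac
The capitals lie 59 to 52 bases before that start site, and 1.55% of the 32851 promoter windows of this length hold these letters on either strand. The composite ATF4-C/EBP motif TGATGNAA was in none of the 14 windows of 8 members (none was given for Mep1b), and 3.45% of all windows hold it. The hypoxia-response cores ACGTG and GCGTG, searched on both strands, were in 1 and 2 of the 14 windows (another Ggt1 window, and an Mme and an Anpep window), against 16.6% and 28.2% of all. The HNF1 motif and the HNF4 motif CAAAGTCCA, of PT identity factors, were in no member window and in 0.00913% and 0.384% of all. The counts are per gene and do not show which start site was used.

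Dpep1 (dipeptidase 1) splits cysteinylglycine, the dipeptide that gamma-glutamyltransferase leaves from glutathione. Its levels were 86.5, 89.0, 92.8, 80.0 and 81.7 CPM in WT 1 to 5 and 116, 139, 128, 125 and 155 CPM in GCERAd 1 to 5. The groups did not overlap, and the log2 fold change was 0.62 (SE 0.08, adjusted p = 0.000228, edgeR). Ggt1 and Dpep1 were thus 1.59-fold and 1.53-fold higher in GCERAd, whereas Anpep, an aminopeptidase that can also split cysteinylglycine, was at a mean of 149 CPM in both groups.

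Mep1a encodes the alpha subunit of meprin, a metalloprotease of the astacin family that cleaves peptides and matrix proteins. Mep1a was at 1029, 1004, 1350, 916 and 1036 CPM in WT 1 to 5 and at 1915, 2049, 1963, 1742 and 1607 CPM in GCERAd 1 to 5, again with no overlap. It had the highest log2 fold change of the members in this comparison (0.79, SE 0.12, adjusted p = 0.000478, edgeR). Mep1b, the beta subunit, is anchored in the membrane and holds the alpha subunit there. Its WT levels were 119, 126, 229, 101 and 119 CPM. In GCERAd 1 to 3 it was at 258, 241 and 247 CPM, above every WT library, and in GCERAd 4 and 5 at 89.6 and 80.9 CPM, below every WT library. Its log2 fold change over all libraries was 0.40 with an SE of 0.35 (adjusted p = 0.428, edgeR). With GCERAd 1 to 3 only it was 0.85 (adjusted p = 0.0126), so 2 libraries decided this call.

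The aminopeptidases and the dipeptidyl peptidase trim peptides from the N-terminus. Enpep (aminopeptidase A) removes the N-terminal aspartate of angiotensin II. It was at 121, 123, 118, 136 and 128 CPM in WT and at 163, 179, 172, 141 and 127 CPM in GCERAd, and GCERAd 5 lay within the WT range. Its log2 fold change of 0.31 (SE 0.10, adjusted p = 0.0385, edgeR) was the weakest of the 6 calls. It did not pass with 7 of 10 single libraries left out (highest adjusted p 0.087), nor with possible repeat libraries summed (0.26, adjusted p = 0.122, edgeR). With GCERAd 1 to 3 only it was 0.45. Anpep (aminopeptidase N) removes neutral residues, and its means were alike, 149 ± 28.7 CPM in WT and 149 ± 19.7 CPM in GCERAd (adjusted p = 0.952, edgeR). Dpp4, which releases dipeptides from peptides with a penultimate proline or alanine and inactivates incretins, was at 92.6 to 105 CPM in WT and at 69.2 to 81.5 CPM in GCERAd. It fell with no overlap, and the log2 fold change was -0.35 (SE 0.07, adjusted p = 0.00252, edgeR).

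Ace and Mme act on vasoactive peptides. Ace (angiotensin-converting enzyme) makes angiotensin II and breaks down bradykinin. It was at 218 to 417 CPM in WT and at 220 to 368 CPM in GCERAd, with a log2 fold change of -0.06 (SE 0.18, adjusted p = 0.828, edgeR). Mme (neprilysin) degrades natriuretic peptides, bradykinin and enkephalins. Mme was at 318, 316, 394, 338 and 332 CPM in WT 1 to 5 and at 240, 226, 253, 187 and 192 CPM in GCERAd 1 to 5. Every GCERAd library was below every WT library, and the log2 fold change was -0.63 (SE 0.10, adjusted p = 0.000957, edgeR). An antisense gene overlaps exons of Ace (Gm11651) and of Dpp4 (Gm13561), and since the strand setting of the counting is not given in the sources used here, reads of these pairs may be mixed.

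The 5 calls without overlap held when counts were scaled to the 10 PT markers instead of all genes, and the call of Enpep did not (log2 fold change 0.14, adjusted p = 0.262, edgeR). That scaling moved the median of all genes to -0.16 and the balance of calls to 5.88% higher and 23.3% lower. Within kind A, 6 members passed, the same 4 upwards and 2 downwards, where 27.4% of all genes did. Within kind B, with a lone WT library assumed to vary like the others, 0 passed by edgeR (4 before adjustment), where 98 genes passed in all (0.842%), while the log2 fold changes of Ggt1, Dpep1, Mep1a, Mme and Dpp4 were 0.77, 0.59, 0.80, -0.60 and -0.35.

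**Figure D2:**
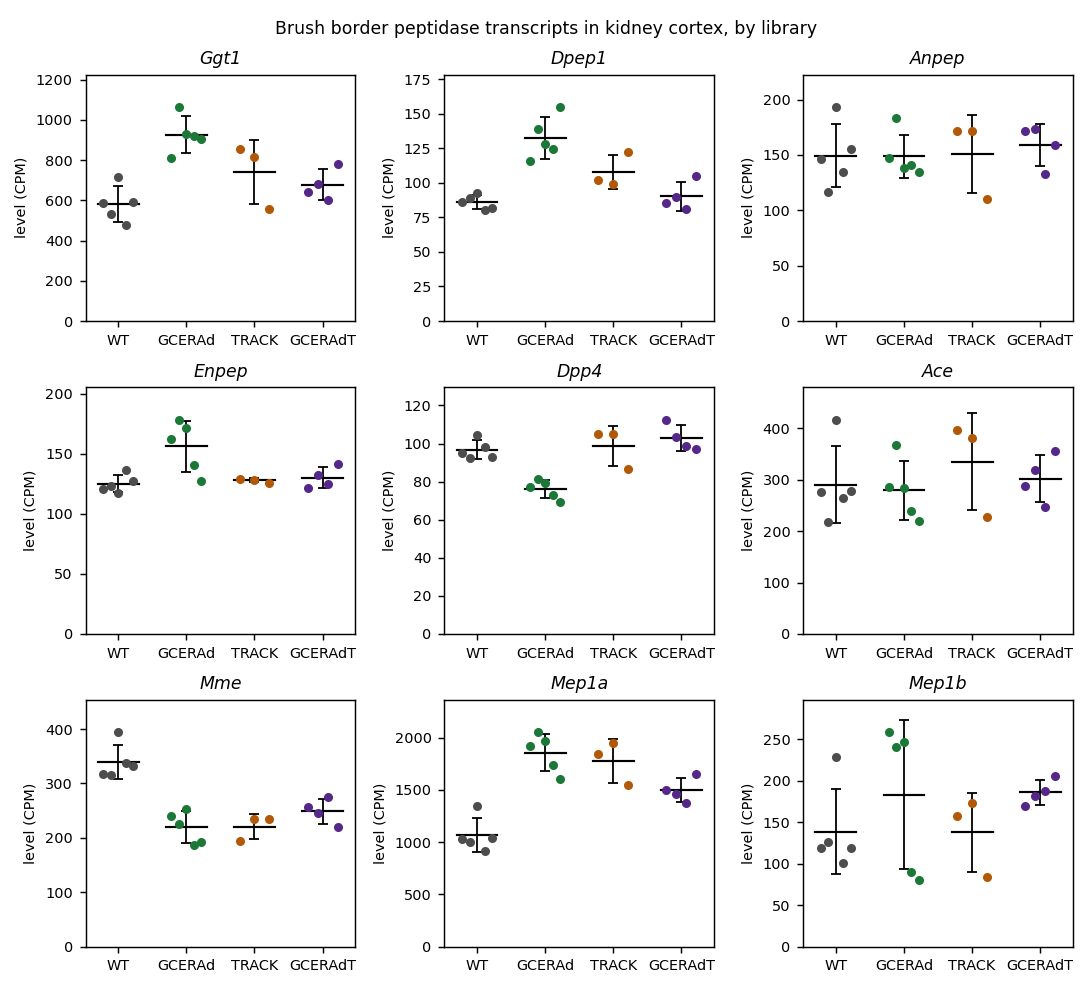
Level (CPM, axes from 0) of the 9 peptidase transcripts in each library, with a horizontal line at the group mean and bars of 1 SD. Mep1a in the 5 WT libraries (916 to 1350 CPM) lies below the 12 other libraries (1374 to 2049 CPM), Mme in WT (316 to 394 CPM) lies above them (187 to 275 CPM), and Mep1b parts GCERAd into 3 libraries at 241 to 258 CPM and 2 at 80.9 to 89.6 CPM.

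The comparison of GCERAdT with TRACK takes the knockout label on the TRACK background, and both groups have Y-linked transcripts. Of these, Ddx3y and Eif2s3y overlapped. Uty (27.0 to 37.3 against 22.4 to 24.7 CPM) and Kdm5d (12.8 to 16.8 against 8.77 to 11.5 CPM) were higher in GCERAdT without overlap. Atf4 was not lower in GCERAdT than in TRACK. No member passed the test there: 0 of 9 by edgeR and 0 of 9 by DESeq2, where edgeR called 7.09% of 11928 genes (2.81% higher, 4.28% lower, and 1.62% and 5.26% when scaled to the PT markers). Before adjustment, 1 member had a p of at most 0.05, Mep1a, as did 25.1% of all genes. No member had groups without overlap, against 22.9% of all genes tested. Cell type markers moved here too (edgeR). All 3 adipocyte markers tested, 2 of 5 endothelial and 1 of 4 each of stroma, podocyte and late PT markers were lower. Of tubule injury markers 1 was higher and 3 were lower, and of whole PT markers 1 and 1. Of distal convoluted tubule and thick ascending limb markers, 1 of 3 each was higher. Their part in the members' values was not tested.

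Ggt1 was at 853, 814 and 556 CPM in TRACK 1 to 3 and at 641, 684, 605 and 783 CPM in GCERAdT 1 to 4. All 4 GCERAdT libraries fell between the lowest and the highest TRACK library, and the log2 fold change was -0.11 (SE 0.15, adjusted p = 0.681, edgeR). Mep1a was at 1841, 1947 and 1545 CPM in TRACK and at 1495, 1465, 1374 and 1649 CPM in GCERAdT (log2 fold change -0.23, SE 0.10, adjusted p = 0.188, edgeR). Here GCERAdT 4 alone lay above the lowest TRACK library, TRACK 3. Dpep1 was at 102, 99.4 and 122 CPM in TRACK and at 85.3, 89.6, 80.7 and 105 CPM in GCERAdT (-0.24, SE 0.11, adjusted p = 0.218). Mep1b had the largest fitted value, 0.46 with an SE of 0.21 (adjusted p = 0.203, edgeR), from 84.0 to 173 CPM in TRACK and 170 to 206 CPM in GCERAdT. The fitted values of Ace, Anpep, Enpep, Dpp4 and Mme were -0.13, 0.10, 0.05, 0.09 and 0.19, and their adjusted p ran from 0.318 to 0.740.

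The difference between both knockout comparisons was tested itself over all 17 libraries. It passed for 5 of 9 members, where 25.1% of 12208 genes passed (12.3% higher, 12.8% lower). The log2 difference, GCERAdT minus TRACK less GCERAd minus WT, was -1.01 for Mep1a (SE 0.16, adjusted p = 0.000367), -0.85 for Dpep1 (SE 0.14, adjusted p = 0.000348) and -0.77 for Ggt1 (SE 0.19, adjusted p = 0.00792). It was 0.83 for Mme (SE 0.16, adjusted p = 0.00132) and 0.44 for Dpp4 (SE 0.11, adjusted p = 0.00848), all by edgeR. Scaled to the PT markers, 1516 genes were higher and 860 lower in this test. The WT libraries are part of it, so it carries the sex-linked difference too. Atf4 itself differed in this test (0.55, SE 0.16, adjusted p = 0.021, edgeR), so the transgene and the level of the knockout's target cannot be told apart. For Dpp4 the call did not hold with the replicate number as a block (adjusted p = 0.0585), in which fit Enpep passed (-0.50, adjusted p = 0.00715, edgeR).

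TRACK against WT sets the transgene label against wild type, and the sex-linked difference goes with it. Here 2 members rose and 1 fell, 3 of 9 where 45.6% of 11967 genes passed (23.0% higher, 22.6% lower), and these 3 had groups without overlap, against 44.3% of all. Mep1a was higher (1778 ± 208 against 1067 ± 165 CPM, SD; log2 fold change 0.73, SE 0.12, adjusted p = 0.000878, edgeR), and so was Dpep1 (108 ± 12.4 against 86.0 ± 5.23 CPM; 0.32, SE 0.09, adjusted p = 0.012). Mme was lower (221 ± 22.6 against 340 ± 31.7 CPM; -0.62, SE 0.09, adjusted p = 0.000572, edgeR). Ggt1 had a log2 fold change of 0.35 (SE 0.15, adjusted p = 0.0836, edgeR) and passed without TRACK 3 (0.52, adjusted p = 0.0103), without WT 3 (0.43, adjusted p = 0.0346) and by DESeq2 (adjusted p = 0.0369). Dpp4 and Enpep had fitted values of 0.03 each.

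Marker lists moved between TRACK and WT as well. Of the 10 PT markers 5 were lower (Lrp2, Slc34a1, Aqp1, Hnf4a and Gatm), Fbp1 was higher and 4 did not pass, and the largest part of the fall in their sum was that of Slc34a1, from 3034 to 1060 CPM. All 5 endothelial markers (761 to 855 against 441 to 503 CPM summed), all 4 tubule injury markers tested (35.5 to 72.2 against 8.59 to 12.4 CPM) and 3 of 4 stroma markers (129 to 253 against 74.4 to 86.9 CPM) were higher. All 5 collecting duct, all 3 distal convoluted tubule, 3 of 4 intercalated cell and 2 of 3 thick ascending limb markers were lower (edgeR). Their part in the members' changes was not tested. Scaling to the PT list raised the median of all genes by 0.49 on the log2 scale. On that scale 7 members were higher (Ggt1, Dpep1, Anpep, Ace, Enpep, Dpp4 and Mep1a), where 67.5% of all genes were called higher and 4.39% lower, and Mme no longer passed (-0.12, adjusted p = 0.277, edgeR). TRACK holds no library of kind A. With kind as a covariate Dpep1 no longer passed (0.27, adjusted p = 0.176), and within kind B, against the 1 WT library, Mep1a alone did, where 12.3% of all genes passed.

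GCERAdT against GCERAd asks about the transgene among mice labelled ATF4 KO, both with Y-linked transcripts. The groups also differed in Atf4 itself, which was at 79.6 to 104 CPM in GCERAdT and at 56.0 to 77.0 CPM in GCERAd (log2 fold change 0.52, SE 0.11, adjusted p = 0.0108, edgeR), so that the transgene and the level of the knockout's target cannot be told apart here. Ggt1 and Dpep1 fell and Dpp4 rose, 3 of 9 where 19.2% of 11816 genes passed (9.39% higher, 9.79% lower), and the same 3 had groups without overlap, against 19.5% of all. Ggt1 was at 605 to 783 CPM in GCERAdT, below the 813 to 1066 CPM of GCERAd (log2 fold change -0.44, SE 0.11, adjusted p = 0.0171, edgeR). The call was lost without GCERAdT 1 (adjusted p = 0.0551) and without GCERAdT 3 (adjusted p = 0.0591). Dpep1 was at 80.7 to 105 CPM against 116 to 155 CPM (-0.54, SE 0.10, adjusted p = 0.00563), and Dpp4 at 97.1 to 113 CPM against 69.2 to 81.5 CPM (0.45, SE 0.08, adjusted p = 0.00377, edgeR).

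In this comparison same-numbered libraries deviated together, each pair being of the same library kind. With the replicate number as a block 5 members passed, where 31.5% of all genes passed. Enpep (-0.30, adjusted p = 0.0463) and Mep1a (-0.33, adjusted p = 0.0358, edgeR) came in addition. Within kind A and with GCERAd 1 to 3 only, 6 members passed in each case (27.2% and 28.3% of all genes), Mep1b being the sixth at -0.48 and -0.39. Over all libraries Mep1b was at 0.04 (SE 0.34, adjusted p = 0.958, edgeR), so its direction turned with the 2 libraries left out. The summed PT markers were lower in GCERAdT than in GCERAd (9282 to 10550 against 14860 to 17430 CPM), with 6 of 10 called lower, while 3 of 5 endothelial and 2 of 3 tubule injury markers were higher (edgeR). Scaled to the PT markers the median of all genes moved up by 0.57, Ggt1 (0.14) and Dpep1 (0.03) no longer passed, and 6 members were higher, where 77.0% of all genes were called higher and 1.13% lower. Relative to that shift Ggt1 and Dpep1 were still below the median gene, and Dpp4 (1.03) was above it.

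**Figure D3:**
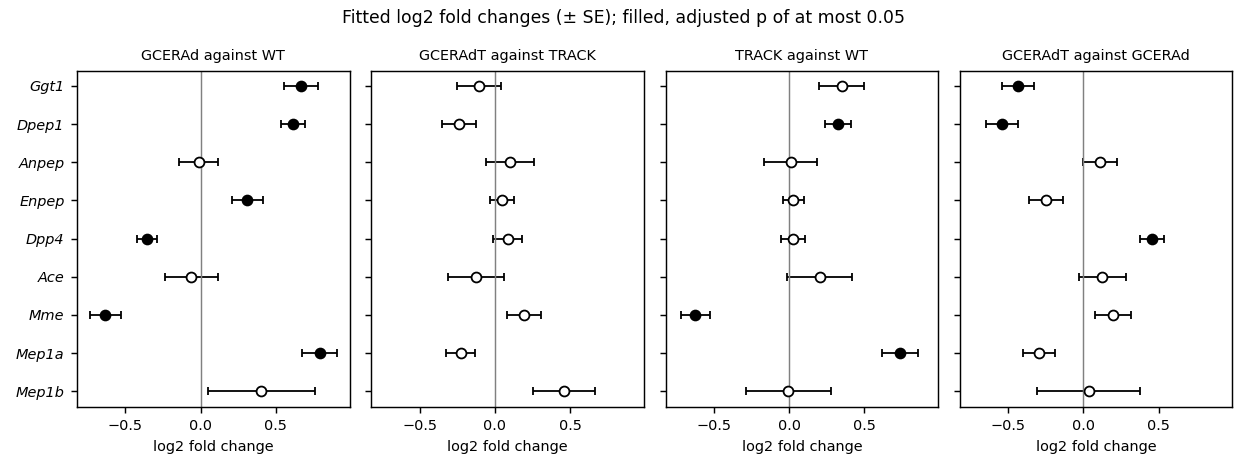
Fitted log2 fold changes of the 9 members in the 4 comparisons, with bars of 1 SE. Filled points have an adjusted p of at most 0.05 by edgeR: 6 in GCERAd against WT, 0 in GCERAdT against TRACK, and 3 in each of the comparisons of TRACK with WT and of GCERAdT with GCERAd.

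Read across all groups, 2 members set the WT libraries apart from the 12 others with no overlap, where 7.75% of 11581 genes did so in either direction. Mep1a was at 916 to 1350 CPM in WT and at 1374 to 2049 CPM elsewhere; WT 3 and GCERAdT 3 were the nearest libraries. Mme was at 316 to 394 CPM in WT and at 187 to 275 CPM elsewhere. WT libraries are also the ones with Xist, and the effect of the genotypes on Mep1a and Mme cannot be told apart from it here. The other 7 members overlapped. Ggt1, Dpep1 and Dpp4 instead set GCERAd apart from both WT and GCERAdT, comparisons that share the GCERAd libraries. In TRACK, Dpp4 was at 86.5 to 105 CPM, above the highest GCERAd library, while Ggt1 and Dpep1 of TRACK overlapped with GCERAd.

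Within groups, some members moved together from library to library. Over 17 libraries the deviations from the group mean (log2 scale) of Anpep and Ace had Pearson r = 0.923 (Spearman rho = 0.897), those of Ace and Mep1a r = 0.893 (rho = 0.895), those of Ggt1 and Ace r = 0.839 (rho = 0.824), and those of Mep1a and Mep1b r = 0.837 (rho = 0.843). The values of a library share its depth, scaling and cell makeup, so these figures describe the libraries. WT 3 was the highest and TRACK 3 the lowest of its group in Ggt1, Ace, Anpep, Mep1a and Mep1b. Dpep1 did not follow them, with r between -0.456 and 0.181 to the other members. Mme also stood aside from Ggt1 (r = -0.127, rho = -0.135).

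**Figure D4:**
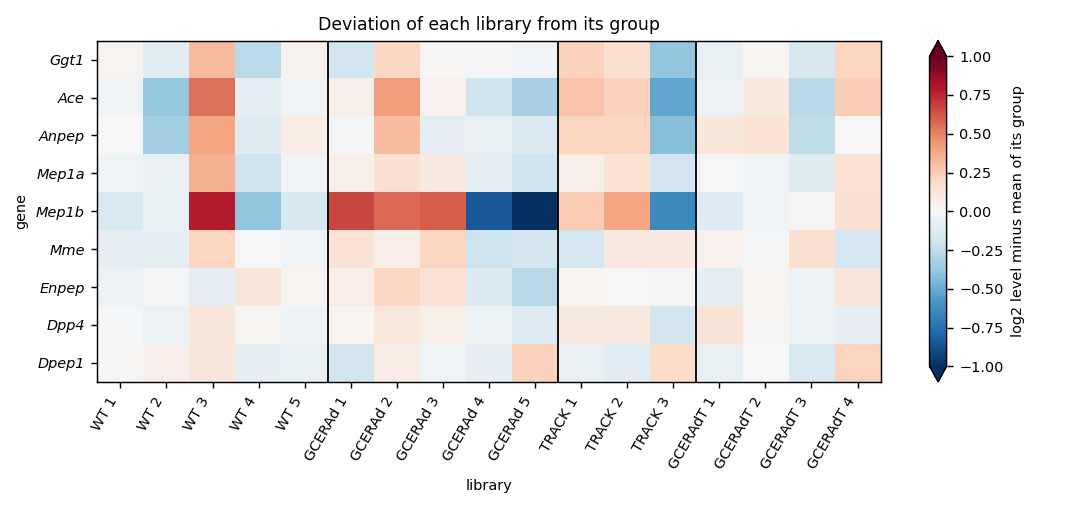
Deviation of each library from the mean of its group (log2 scale, colour) for the 9 members, with groups parted by lines. WT 3 is high and TRACK 3 is low in the 5 upper genes, and Mep1b is low in GCERAd 4 and 5 and high in GCERAd 1 to 3.

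The genes whose deviations were most like those of Ggt1 were Slc22a2, an organic cation transporter (r = 0.921, rho = 0.860), Mettl7b (r = 0.918, rho = 0.882), Treh, the brush border trehalase (r = 0.912, rho = 0.907), Them7 (r = 0.909, rho = 0.848) and Abcb8 (r = 0.909, rho = 0.868), over the same 17 libraries.

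Genes around the members in the same pathways were read from lists. In GCERAd against WT, which carries the sex-linked difference for these genes too, 27.6% of all genes tested were called (14.1% higher, 13.5% lower). Of other peptidases of the cell surface, 14 of 25 could be tested in GCERAd against WT, of which 1 was higher and 2 were lower, with a median log2 fold change of -0.01. The higher gene was Cpe, a carboxypeptidase of hormone processing (56.5 ± 18.8 against 11.0 ± 0.189 CPM, SD, n = 5 each; log2 fold change 2.35, SE 0.20). Ggt6, a relative of Ggt1, was lower (14.1 ± 2.00 against 20.5 ± 3.74 CPM; -0.55, SE 0.13, adjusted p = 0.00712, edgeR), as was Folh1.

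Of 15 genes tested of glutathione and the gamma-glutamyl cycle, 7 were higher and 2 lower, with a median of 0.35. Of all genes, 14.1% were called higher and 13.5% lower. Nat8, which acetylates cysteine conjugates, rose by 2.44 on the log2 scale (303 ± 80.7 against 55.1 ± 14.6 CPM, SE 0.23, adjusted p = 1.76e-05). Cndp2, a cytosolic dipeptidase that splits cysteinylglycine, rose by 2.06 (771 ± 295 against 185 ± 40.1 CPM, SE 0.27, adjusted p = 0.000228), and Acy3, which removes the acetyl group of mercapturates, by 1.69 (SE 0.25, adjusted p = 0.000502, all edgeR). Gclc, Gclm and Gss, which make glutathione, rose by 0.31, 0.35 and 0.49. The lower genes were Acy1 and Slc7a9.

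Of 19 peptide carriers and cytosolic peptidases tested, 9 were higher and 1, the peptide carrier Slc15a2, was lower, with a median of 0.18. For this list and the next ones, 14.1% of all genes were called higher and 13.5% lower. Cndp1, a carnosine-splitting dipeptidase, rose by 1.41 (SE 0.10) and Lap3, leucine aminopeptidase, by 1.01 (SE 0.09). Of 8 renin-angiotensin genes 2 were higher, among them Agtr1a (46.2 ± 3.97 against 36.5 ± 2.31 CPM; 0.33, SE 0.08, adjusted p = 0.00776, edgeR). Of 15 genes of brush border structure 5 were higher and 1 lower, with a median of 0.12. Vil1, which bundles the actin of microvilli, rose by 0.83 (242 ± 54.4 against 136 ± 10.6 CPM, SE 0.13), Ush1c by 0.64 (SE 0.08) and Myo7b by 0.59 (SE 0.11).

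In GCERAdT against TRACK the same lists held few calls, as did the table as a whole (7.09%). Of other surface peptidases 0 of 15 passed by edgeR (1 by DESeq2, and 2 before adjustment). Of peptide carriers and cytosolic peptidases 0 of 19 passed by edgeR (0 by DESeq2, and 4 before adjustment). Of the glutathione list 1 of 16 passed, of the renin-angiotensin list 2 of 9, and of brush border structure 1 of 15, all 4 downwards. They were Chac1, a gamma-glutamylcyclotransferase that splits intracellular glutathione (1.45 ± 0.324 against 3.28 ± 0.265 CPM; -1.16, SE 0.29, adjusted p = 0.0436), Ren1 (34.5 ± 20.8 against 124 ± 45.9 CPM; -1.84, SE 0.38, adjusted p = 0.0222), Agt (87.8 ± 4.69 against 163 ± 28.0 CPM; -0.88, SE 0.12, adjusted p = 0.00306) and Vil1 (187 ± 29.9 against 311 ± 47.9 CPM; -0.71, SE 0.14, adjusted p = 0.0159, edgeR).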

How the data were processed

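RNA of kidney cortex was sequenced from 17 libraries (TruSeq Stranded mRNA kit, RIN of at least 9). The authors demultiplexed with bcl2fastq 2.20, trimmed with Cutadapt, aligned to GRCm38 with STAR and counted reads per gene with HTSeq-count, and the deposited table holds these raw counts, without normalization. The annotation release, the strand setting and the handling of reads with several matches are not given in the sources used here. Groups and replicate numbers were taken from the sample labels.

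From these counts, genes were fitted with edgeR 4.0.16 (R 4.3.3, TMM scaling, quasi-likelihood test, Benjamini-Hochberg adjustment over all genes tested) on the 2 groups compared, and a gene was called at an adjusted p of at most 0.05. The study states DESeq2 (1.42.0 here), which was an alternative. Genes were tested at a mean FPKM of at least 1 in either group, with merged exon lengths of GENCODE M21 (GRCm38). Of 48795 identifiers 360 had no length there, and 121 of these had counts and were not tested. CPM and FPKM in the text use TMM over all 17 libraries. The SE is the fitted log2 fold change divided by the root of the F statistic. The difference between both knockout comparisons was fitted over all libraries. The procedure was tested on simulated data.

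The 9 members and all lists were chosen with earlier results of these data known. Named were the members, Atf4 and sex-linked genes, the 5 genes most like Ggt1 in their deviations, and from each list of GCERAd against WT and GCERAdT against TRACK up to 3 called genes of the largest change without overlap. Folh1, Gclc, Gclm, Gss, Acy1, Slc7a9 and Slc15a2 were named after their values were seen, and a gene of the lists is not reported here by name. Same-numbered libraries of GCERAdT and GCERAd deviated together (r 0.38 to 0.54 over genes in all 4 pairs, each pair being of 1 library kind). The main fit there was unpaired, and the numbers entered only the fit with the replicate block. Different-numbered pairs of 1 kind had r from 0.068 to 0.45 and those of different kinds from -0.45 to -0.21, so number and kind are not set apart. In the other comparisons every same-number r was below 0.1 (lowest -0.59).

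Alternatives were RLE scaling, DESeq2, edgeR's filterByExpr, no minimum, all 17 libraries in 1 fit, and the replicate number as a block. Others were scaling to 10 PT markers, library kind as a covariate, possible repeat libraries summed, and each library left out in turn. Fits within kind A or B, with GCERAd 1 to 3 only, and with kind as a covariate where 1 group holds a single kind were added after seeing the data. Promoter windows were taken from RefSeq (GRCm38.p6).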

Additional observations from a re-analysis of the deposited data

Results flagged for a closer look

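In 27 groups of 4 or 5 libraries tested, 4 had 1 library far from the others by Dixon's test, which chance alone flags in about 1 of 20 groups. The groups are genes in the same libraries and are not independent, so the count cannot be set against that rate. WT 3 was the highest in Mme (394 CPM), Mep1a (1350 CPM) and Mep1b (229 CPM), and GCERAd 2 was the highest in Anpep (183 CPM). Without WT 3, Mme and Mep1a were still called in GCERAd against WT and in TRACK against WT.

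The change under the knockout label differed between mice without and with the TRACK transgene for 5 members by the test of the difference (edgeR): Ggt1 (-0.77), Dpep1 (-0.85), Mep1a (-1.01), Mme (0.83) and Dpp4 (0.44), on the log2 scale. Of these libraries WT alone carried Xist, so this difference cannot be told apart from the sex-linked one. Atf4 differed in this test as well (0.55, adjusted p = 0.021, edgeR), and it was not lower in GCERAdT than in TRACK. The transgene and the level of the knockout's target thus cannot be told apart either.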

How the results depend on the processing

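Of 936 values of single members under alternatives, 875 kept their direction where called and their side of the threshold, 33 lost the call, 22 gained it and 6 turned direction. The 6 were all in GCERAdT against GCERAd: scaled to PT markers Ggt1 was 0.14, Dpep1 0.028, Enpep 0.34 and Mep1a 0.28, a scaling that moved the median of all genes to 0.57 and left these 4 below it, and Mep1b was -0.39 with GCERAd 1 to 3 only and -0.48 within kind A. Of the counts of members called, 95 of 104 stayed within 1.5 times. The exceptions were within kind B (0 in GCERAd against WT, 1 in TRACK against WT, 0 in GCERAdT against GCERAd and 0 for the difference), scaled to PT markers (7 in TRACK against WT and 6 in GCERAdT against GCERAd), and in GCERAdT against GCERAd within kind A (6), with GCERAd 1 to 3 only (6) and with the replicate block (5). No alternative called a member in GCERAdT against TRACK.

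Genes called over all genes with the replicate block numbered 2106 in GCERAd against WT, 3382 in TRACK against WT and 3731 in GCERAdT against GCERAd. Within kind B they numbered 98, 1475 and 349, 221 in GCERAdT against TRACK and 452 for the difference. Scaled to PT markers they numbered 8606 (8081 higher, 525 lower) in TRACK against WT and 9238 (9104 higher, 134 lower) in GCERAdT against GCERAd. With kind as a covariate they numbered 462 in GCERAdT against TRACK and 2776 in TRACK against WT, and by DESeq2 1562 in GCERAdT against TRACK. With single libraries left out they ran from 379 (without GCERAdT 2) to 1424 (without GCERAdT 4) in GCERAdT against TRACK, and from 1427 (without GCERAdT 2) to 2336 in GCERAdT against GCERAd. With the longest transcript as length, 4 of 9 places in the WT order were as with merged exons, and 9 of 9 in the other groups. The cause of these shifts was not tested. Fewer libraries entered the fits within 1 kind and without a library.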

Other observations

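Of 9 renin-angiotensin genes tested in TRACK against WT, 6 were higher and 1 lower, among them Ren1 (124 ± 45.9 against 37.2 ± 8.48 CPM, SD, n = 3 and 5; log2 fold change 1.73, SE 0.24, adjusted p = 0.000356, edgeR), and Prcp, which removes the last residue of angiotensin II (79.2 ± 4.11 against 40.5 ± 7.21 CPM; 0.97, SE 0.13, adjusted p = 0.000289). Of 14 other surface peptidases 6 were higher and 2 lower, of 16 glutathione genes 8 and 3, of 19 peptide carriers and cytosolic peptidases 8 and 3, and of 15 brush border structure genes 2 and 5, where 45.6% of all genes passed. Cpe was higher (83.2 ± 15.4 against 11.0 ± 0.189 CPM; 2.92, SE 0.10, adjusted p = 1.53e-07, edgeR).

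In GCERAdT against GCERAd, of 15 genes tested in the glutathione list 1 was higher and 7 lower, of 19 peptide carriers and cytosolic peptidases 6 were lower, and of 15 brush border structure genes 6 were lower, where 9.79% of all genes were called lower. Cndp2 was at 233 to 318 CPM in GCERAdT and at 439 to 1038 CPM in GCERAd (log2 fold change -1.47, SE 0.28, adjusted p = 0.00504, edgeR). Of other surface peptidases 0 of 15 passed by edgeR. These genes were named after their values were seen.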
